A study of Mus musculus with 4 samples.

Results

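A set of 9 regulators of epithelial cells was followed in 4 mouse cell populations: the Grainyhead-like factors Grhl1, Grhl2 and Grhl3, the zinc finger factors Ovol1 and Ovol2, the Ets factors Ehf and Elf3, and the splicing regulators Esrp1 and Esrp2. They were chosen by name, with earlier results of these data known. All 9 were found among the 23185 named genes on the arrays, each with 1 probe set. Their Entrez gene IDs are 195733 (Grhl1), 252973 (Grhl2), 230824 (Grhl3), 18426 (Ovol1), 107586 (Ovol2), 13661 (Ehf), 13710 (Elf3), 207920 (Esrp1) and 77411 (Esrp2).

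The study is titled as one of interrupted reprogramming, and it put RNA of each population on 1 Affymetrix array. The induced pluripotent stem (iPS) cells were derived from club cells, the secretory cells of the airway lining. The Day0 cells were club cells of adult mouse lung that had not been cultured. The 3w+Dox cells, or Club-iPL cells, were club cells kept for 3 weeks in medium containing doxycycline, a drug that turns on tetracycline-inducible constructs. The cells labelled 3w+Dox+2w-Dox, called withdrawn cells below, had 2 more weeks in medium free of the drug. All 4 are labelled adult lung. The labels name no strain, sex, transgene, promoter, sort or pooling of animals, and do not say how many clones the iPS cells represent. Club cells cultured without the drug were not analysed here, and weeks in culture cannot be told apart from exposure to doxycycline.

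Signals are log2 values from robust multi-array averaging (RMA), on which a difference of 1 is a doubling. Array medians lay between 6.60 and 6.74. With 1 array per population there is no spread between replicates, no p-value was computed, and precision is limited by the number of arrays. The call rules, 4-fold and 2-fold, ask for log2 signals at least 2 or 1 apart and a brighter array of at least 6.67, the median over all probe sets and arrays. Shares of named genes set beside counts are of all named genes, including those too dim to be called. Shares among bright genes alone were not computed, and would be larger. Levels of different probe sets are not set against each other, since probe sets differ in their brightness per transcript. The samples are bulk RNA, in which fewer cells of a type and less RNA per cell cannot be told apart.

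Grainyhead-like factors bind DNA in epithelia and keep genes of cell junctions and of the epidermal barrier active. Ovol factors are repressors that hold down Zeb1 and other drivers of the mesenchymal state, while Ehf and Elf3 are Ets factors found mainly in epithelial cells, and Esrp proteins bind RNA and select the epithelial exons of genes such as Fgfr2 and Cd44. In airway epithelium, Grhl2 is known for its part in barrier formation and in the ciliated cell program. The arrays were summarised by gene, so exon choice, which is what the Esrp proteins control, was not measured.

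Promoters of 4 of the 9 genes (Grhl1, with 2 start sites, Grhl3, Ovol2 and Elf3) were matched by symbol in a RefSeq table of build GRCm38.p6, each as 250 bases before to 50 after the start. They were searched on both strands for AACCGGTT (Grainyhead), CCGTTA (Ovol), CAGGTG (the E-box of Zeb and Snail factors) and CCGGAAGT (Ets). Those letters occur in 0.146%, 2.76%, 20.2% and 3.89% of all 32851 promoters in the table. Grhl3 held the E-box letters at 2 places, with first bases at positions -19 and 9 from the start, and Elf3 held them once, from position -140. Neither Grhl1 window nor that of Ovol2 held any of the 4 motifs. A match of letters is a description and not a binding site. The windows of Grhl3 and Elf3 are shown because they hold the E-box letters, and because Grhl3 was the 1 gene of the 9 at least 4-fold higher in iPS cells than at Day0 and Elf3 the 1 gene brightest at 3w+Dox. They are printed 5′ to 3′ along the gene, from chr4:135573583-135573882 (minus strand) and chr1:135258423-135258722 (minus strand), with the E-box, read from the other strand, in capitals.
Grhl3: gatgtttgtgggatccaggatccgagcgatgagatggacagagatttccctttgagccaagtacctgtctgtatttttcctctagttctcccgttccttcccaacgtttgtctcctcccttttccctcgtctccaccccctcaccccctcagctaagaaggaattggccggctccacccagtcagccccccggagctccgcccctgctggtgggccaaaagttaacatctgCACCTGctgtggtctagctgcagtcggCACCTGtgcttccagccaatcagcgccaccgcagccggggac
Elf3: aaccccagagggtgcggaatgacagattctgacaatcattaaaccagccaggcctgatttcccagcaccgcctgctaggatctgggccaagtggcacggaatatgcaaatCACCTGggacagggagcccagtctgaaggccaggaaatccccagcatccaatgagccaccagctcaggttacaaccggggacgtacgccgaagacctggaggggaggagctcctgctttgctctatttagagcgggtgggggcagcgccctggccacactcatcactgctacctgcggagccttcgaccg

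Marker lists bear on the labels of the arrays. At Day0, 12 of 12 club, 12 of 12 ciliated and 10 of 10 alveolar type 2 markers lay at or above 6.67, so the Day0 array held signal of several lung epithelial types. At 3w+Dox the counts were 8, 4 and 10, and in withdrawn cells 11, 12 and 10. Airway basal markers had 5 of 10 at or above 6.67 at Day0, 5 at 3w+Dox and 6 in withdrawn cells, and endothelial markers 1, 3 and 2 of 10. In iPS cells 2 of 12 club, 4 of 12 ciliated, 4 of 10 alveolar type 2, 5 of 10 basal and 6 of 10 endothelial markers did so. Proliferation genes were higher than at Day0 by a median of 3.72 in iPS cells, 0.88 at 3w+Dox and 0.70 in withdrawn cells, and the part of these list differences in those of the 9 regulators was not tested.

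The comparisons of cultured cells with Day0 ask how far these regulators were kept in 3 weeks with doxycycline and in 2 weeks after it. Signals of 8 of the 9 genes were ordered Day0 above 3w+Dox above withdrawn cells, an order that 13.5% of all named genes had with a brightest array at or above 6.67. Elf3 was the exception, being brightest at 3w+Dox. The share is of all named genes, dim ones included, while each of the 9 had a brightest array above 6.67. At 3w+Dox the median difference of the 9 genes from Day0 was -0.93 (range -2.19 to 0.65), beside -0.09 over all named genes. In withdrawn cells it was -1.78 (range -2.99 to -0.43), beside -0.08 over all named genes. Each array was also centred on a list of 32 epithelial adhesion genes, described further on. That raised the median of all named genes by 0.39 at 3w+Dox and 1.19 in withdrawn cells against Day0. Medians of the 9 were then -0.53 and -0.59. The order held for 4 of the 8 genes, breaking for Grhl2, Ovol1, Ovol2 and Esrp2. These comparisons share the Day0 array, and those with 3w+Dox or withdrawn cells share those arrays too.

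**Figure D1:**
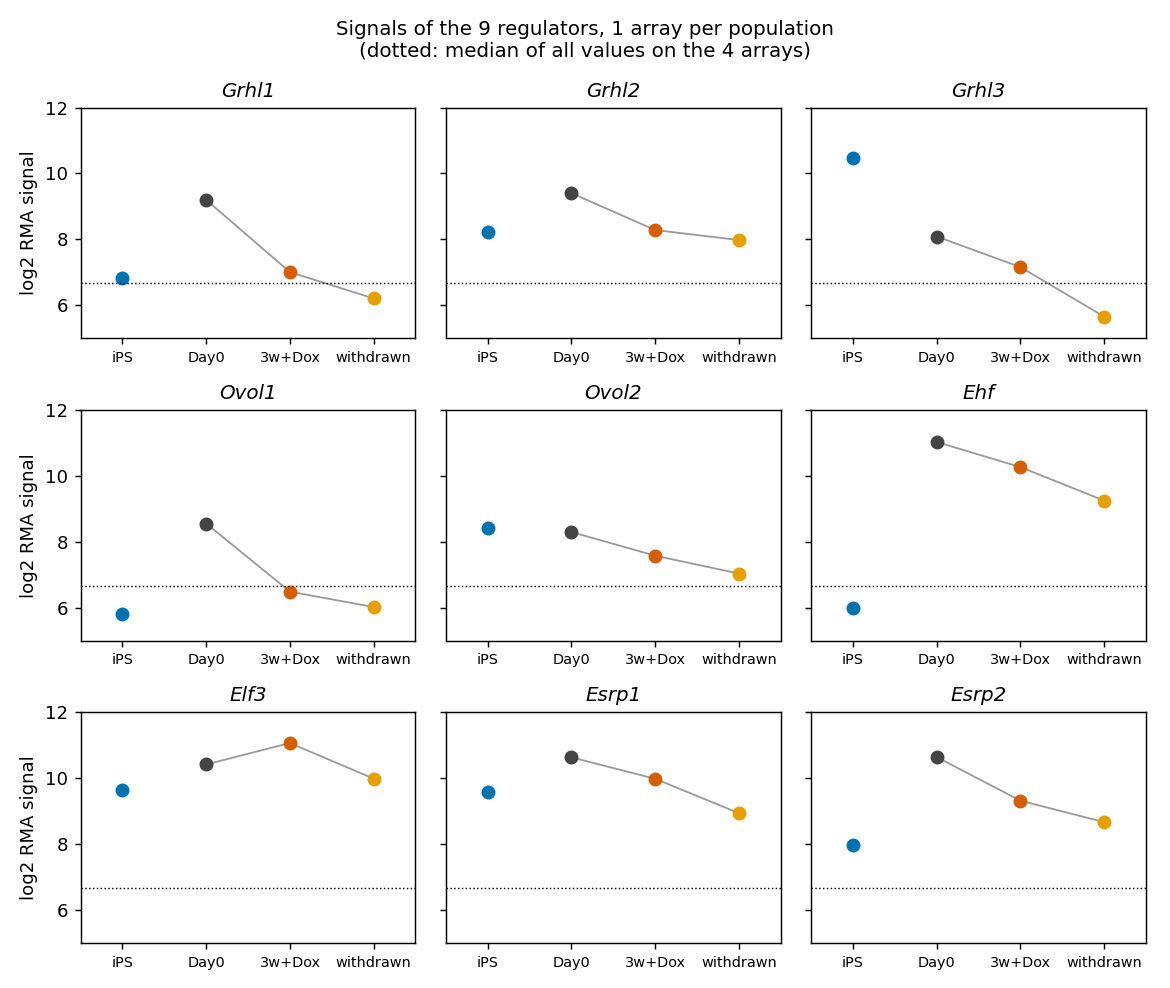
Log2 RMA signal of each of the 9 genes (y axis) in iPS cells, Day0 cells, 3w+Dox cells and withdrawn cells (x axis), with 1 point per array, no error bars, and a line joining the time series. The dotted line is the median of all values, 6.67. On the deposited scale, signals were lower at each later time for 8 genes, Elf3 was brightest at 3w+Dox (11.06), and in iPS cells Grhl3 was bright (10.46) and Ehf dim (6.00).

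By the 4-fold rule, 2 of the 9 genes were lower at 3w+Dox than at Day0, with 2.88% of all named genes called lower, and 0 were higher, with 4.31% called higher. By the 2-fold rule 4 were lower (7.52% of named genes) and 0 higher (8.67%). In withdrawn cells 3 were lower than at Day0 by 4-fold (1.85% of named genes) and 8 by 2-fold (7.76%), and 0 were higher by either rule (4.05% and 7.85%). Elf3 alone stayed under the 2-fold rule there. Centring on the adhesion genes ended the 4-fold calls, leaving 0 at 3w+Dox and 0 in withdrawn cells. By the 2-fold rule it left 1 higher and 2 lower at 3w+Dox and 3 lower in withdrawn cells. The shares of named genes called were not computed on that scale, so these counts stand without a background. Fibroblast and leukocyte markers were higher on both culture arrays, as given further on, and their part in these differences was not tested.

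Among the Grainyhead-like factors, Grhl1, which acts in epidermal adhesion and hair anchoring, read 9.20 at Day0, 7.01 at 3w+Dox and 6.21 in withdrawn cells. It was 4.56-fold lower at 3w+Dox and 7.94-fold lower in withdrawn cells than at Day0, and 0.539% of named genes had a more negative difference in withdrawn cells. Grhl2, a direct activator of Cdh1 and claudin genes, read 9.40, 8.28 and 7.98 on the same arrays, which is 2.17-fold and 2.68-fold lower than Day0. Grhl3, known for epidermal barrier formation and wound closure, read 8.09, 7.16 and 5.66. Most of its difference lay in the weeks after withdrawal, with -0.93 at 3w+Dox against Day0 and -1.50 in withdrawn cells against 3w+Dox. Withdrawn-cell signals of Grhl1 and Grhl3 lay below 6.67, so these folds are not exact.

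The difference of Grhl1 from Day0 was more negative than that of Grhl2, with Grhl1 less Grhl2 at -1.07 at 3w+Dox and -1.57 in withdrawn cells. Grhl3 differed from Day0 by about as much as Grhl2 at 3w+Dox (Grhl2 less Grhl3, -0.19) and by more in withdrawn cells, where Grhl3 was at -2.43 and Grhl2 at -1.42. The other relatives of the family were Tfcp2, Ubp1 and Tfcp2l1, of which Tfcp2l1 is also a factor of naive pluripotent cells. By the 2-fold rule 0 of these 3 were called at 3w+Dox or in withdrawn cells against Day0. Tfcp2l1 read 9.75 at Day0, 10.70 at 3w+Dox and 8.77 in withdrawn cells, so that it was the only relative called after withdrawal, at -1.93 against 3w+Dox.

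The Ovol genes also moved unequally. Ovol1, a repressor that acts at the exit of epithelial progenitors from proliferation, read 8.55 at Day0, 6.49 at 3w+Dox and 6.02 in withdrawn cells. It was 4.18-fold lower at 3w+Dox and 5.79-fold lower in withdrawn cells, and it lay below 6.67 on both of these arrays. Ovol2, which represses Zeb1 and holds epithelial identity, read 8.29, 7.58 and 7.03, differences of -0.72 and -1.26 from Day0, and stayed above 6.67 throughout. Ovol1 less Ovol2 was -1.35 at 3w+Dox and -1.27 in withdrawn cells. Ovol3, the third gene of the family, read 6.02, 5.58 and 5.89, under 6.67 on every array.

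The epithelial Ets factors took different courses at 3w+Dox. Ehf, which is made in airway, gland and gut epithelia, read 11.03 at Day0, 10.26 at 3w+Dox and 9.25 in withdrawn cells, and its differences from Day0 were -0.76 and -1.78. Elf3, an Ets factor of epithelial differentiation and of the response to inflammatory signals, read 10.41 at Day0, 11.06 at 3w+Dox and 9.98 in withdrawn cells. Its 3w+Dox signal was 1.57-fold higher than at Day0, and 86.4% of named genes had a smaller difference. The difference of Ehf was more negative than that of Elf3, with Ehf less Elf3 at -1.41 at 3w+Dox and -1.35 in withdrawn cells.

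Of 23 other measured Ets genes, 4 were higher and 1 lower by 4-fold at 3w+Dox than at Day0, and 4 were higher and 1 lower in withdrawn cells, with list medians of 0.25 and 0.26. The gene that was lower was Elf5, a factor of mammary and lung epithelium and a close relative of Ehf and Elf3, which read 11.06 at Day0, 6.28 at 3w+Dox and 6.73 in withdrawn cells. Those that were higher included Spi1, which encodes the myeloid factor PU.1, by 3.35 at 3w+Dox, and Fli1, a factor of blood and endothelial cells, by 3.27.

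On the deposited scale the splicing regulators differed in when they were lower, but by less than 2-fold and without replicates. Esrp1 less Esrp2 was 0.67 at 3w+Dox against Day0 and -0.39 in withdrawn cells against 3w+Dox. Esrp1 read 10.63 at Day0, 9.98 at 3w+Dox and 8.94 in withdrawn cells, with a difference of -0.65 over the weeks with doxycycline and of -1.04 over the weeks without it. Esrp2 read 10.64, 9.31 and 8.66, with -1.32 and -0.65 over the same intervals. In withdrawn cells their differences from Day0 were -1.69 for Esrp1 and -1.97 for Esrp2 (Esrp1 less Esrp2, 0.28). Both read above 6.67 on all 4 arrays. With arrays centred on the adhesion genes, Esrp1 differed by -0.26 over the weeks with doxycycline and -0.25 over those without it. Esrp2 then differed by -0.93 and 0.14 over these intervals.

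Among 26 other splicing regulators the median difference was 0.00 at 3w+Dox and 0.02 in withdrawn cells, with 2 higher and 0 lower by 2-fold at 3w+Dox, and 2 higher and 2 lower in withdrawn cells. Rbfox2, which promotes mesenchymal exons, was higher by 1.38 and 1.34, and Rbms3 by 1.06 and 1.09. The 2 that were lower in withdrawn cells were Mbnl3 at -1.45 and Rbm47 at -1.03. Rbm47, an epithelial RNA-binding protein, read 10.26 at Day0, 9.63 at 3w+Dox and 9.23 in withdrawn cells. Of 12 genes known to be spliced by Esrp proteins, 3 were lower by 2-fold at 3w+Dox and 0 higher, and their median was 0.10. Fgfr3 differed by -4.45, Fgfr2, the receptor whose epithelial exon depends on Esrp proteins, by -1.86, and Enah, an actin regulator, by -1.37. These are differences of whole-gene signal and say nothing of exon choice. In withdrawn cells the list had 1 gene higher and 3 lower by 2-fold, with a median of -0.16.

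**Figure D2:**
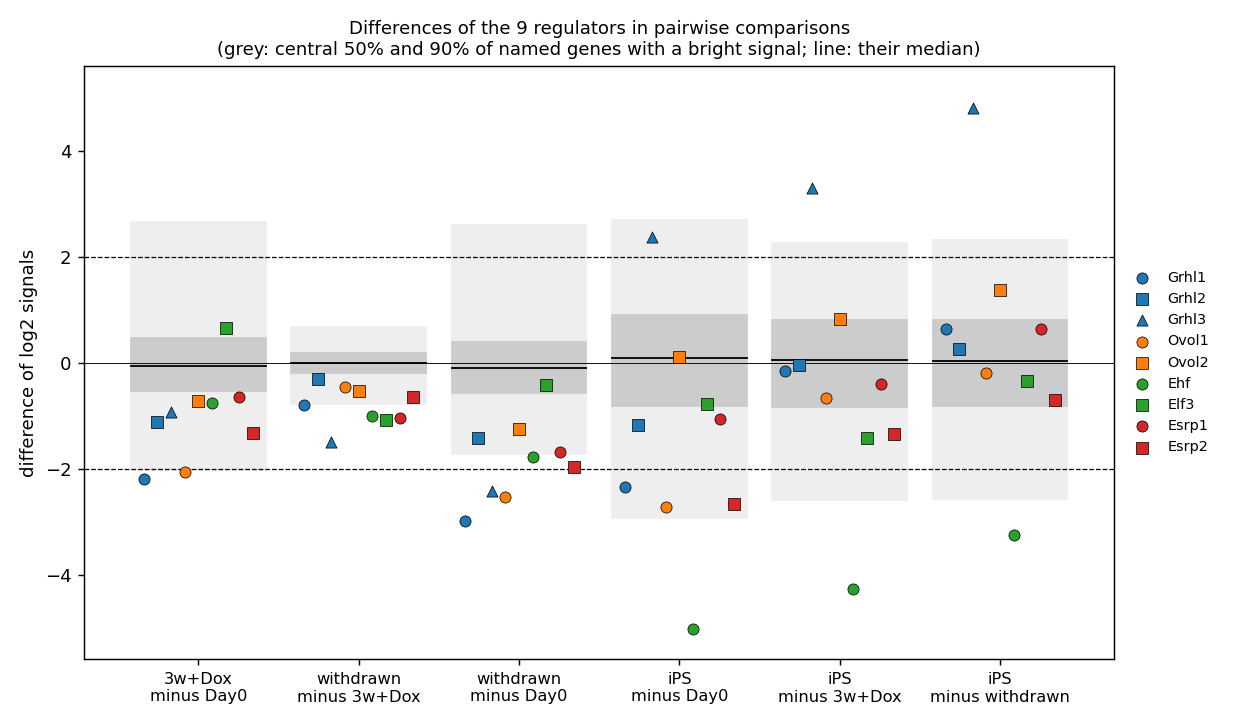
Difference of log2 signals (y axis) of the 9 genes in 6 comparisons (x axis, first-named population minus the second), coloured by family, without error bars. Grey boxes hold the central 50% and 90% of named genes whose brighter array was at or above 6.67, the black line is their median, and dashed lines mark 4-fold. All 9 genes lay below 0 in withdrawn cells against 3w+Dox and against Day0 (5 and 8 of 9 with arrays centred on the adhesion genes), while in the 3 iPS comparisons Grhl3 and Ehf lay far apart.

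Setting withdrawn cells against 3w+Dox cells asks whether the regulators came back once doxycycline was gone. All 9 were lower in withdrawn cells than at 3w+Dox, although 4 turned above 0 when arrays were centred on epithelial adhesion genes, with a median of -0.80 (range -1.50 to -0.30) beside 0.03 over all named genes, of which 46.0% lay below 0. By the 2-fold rule 4 were lower (1.88% of named genes) and 0 higher (1.45%), and by the 4-fold rule 0 were lower (0.470%) and 0 higher (0.302%). The 4 were Grhl3 (-1.50), Elf3 (-1.08), Esrp1 (-1.04) and Ehf (-1.02). The call of Ehf was lost after a second quantile normalization and after centring on the brighter named genes (-0.97 in both), which left 3 called. Centring arrays on the adhesion genes raised the median of all named genes by 0.80. By the 2-fold rule 0 of the 9 were then called, and the share of named genes called was not computed on that scale. Smaller differences were those of Grhl1 (-0.80), Esrp2 (-0.65), Ovol2 (-0.54), Ovol1 (-0.47) and Grhl2 (-0.30). For the 4 genes at least 2-fold below Day0 at 3w+Dox, the share of that difference undone in withdrawn cells was below 0, at -49.2% for Esrp2, -36.5% for Grhl1, -27.1% for Grhl2 and -22.7% for Ovol1, so that on the deposited scale each lay further from Day0. With arrays centred on the adhesion genes the share was 15.6% for Esrp2, -0.24% for Grhl1, 67.9% for Grhl2 and 19.5% for Ovol1, so its sign turned for 3 of the 4.

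In the same comparison, ciliated cell markers were higher in withdrawn cells, with 7 of 12 higher by 4-fold and 0 lower and a median of 2.41. Foxj1, the master factor of motile cilia, read 10.45 in withdrawn cells, against 7.99 at 3w+Dox. Of 12 club cell markers, 4 were higher and 2 lower by 4-fold, with a median of 0.78. Of 23 measured lineage factors of epithelium, 1 (Foxj1) was higher and 1 (Klf4) lower by 2-fold, with a median of 0.09. The 10 airway basal cell markers had a median of 0.27, with 1 higher and 2 lower by 2-fold.

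Adhesion and membrane genes of epithelium, several of them known targets of Grhl2, were lower too, and a part of Grhl2 in this was not tested. Of 32 measured, 0 were higher and 10 lower by 2-fold in withdrawn cells than at 3w+Dox, with a median of -0.78, and the furthest apart were Krt7 (-2.36), Prom2 (-2.29), Krt8 (-1.73) and Krt19 (-1.70). Against Day0 they had a median of -0.40 at 3w+Dox, with 3 higher and 6 lower by 2-fold, and of -1.37 in withdrawn cells, with 0 higher and 25 lower. Prss8, a membrane protease, differed from Day0 by -2.51 at 3w+Dox and -2.97 in withdrawn cells. Epcam, an adhesion molecule, read 11.19 at Day0, 10.77 at 3w+Dox and 10.18 in withdrawn cells, and the E-cadherin gene Cdh1 read 12.56, 12.20 and 11.48.

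The regulators were also measured from the median of the differences of these 32 genes between the same 2 arrays. This reference is not the centring used above, which took the median signal of the 32 genes on each array. For withdrawn cells against Day0 it was -1.37, while the centring shifted the median of all named genes by 1.19. Of the 9 regulators 8 lay below the median difference at 3w+Dox against Day0, and 5 in withdrawn cells against 3w+Dox. In withdrawn cells against Day0 7 lay below it, and 8 lay below 0 by the centring. Relative to the adhesion median Grhl1 was at -1.78 at 3w+Dox and -1.62 in withdrawn cells, and Ovol1 was at -1.66 and -1.16. Elf3 lay above it, at 1.05 and 0.94, although its difference from Day0 in withdrawn cells was -0.43 on the deposited scale, which turned to 0.76 with arrays centred on the adhesion genes. Grhl2 and Ovol2 lay near it in withdrawn cells, at -0.05 and 0.11. Barrier and cornified envelope genes, a group that Grhl3 acts on in epidermis, had medians of -0.12 at 3w+Dox and -0.06 in withdrawn cells against Day0. By 2-fold 4 of 15 were higher and 0 lower at 3w+Dox, and 3 higher and 0 lower in withdrawn cells. Only 3 of the 15 lay at or above 6.67 at Day0, 5 at 3w+Dox and 5 in withdrawn cells, so few could be called lower. Tgm1, a transglutaminase that Grhl3 activates in epidermis, read 7.77 at Day0, 11.39 at 3w+Dox and 7.63 in withdrawn cells. Signals of Grhl3 on these arrays are given above, and a part of Grhl3 in the Tgm1 signal was not tested.

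Genes of other cell types moved on the same arrays. Fibroblast and mesenchymal markers had 13 of 14 at or above 6.67 at 3w+Dox and 13 in withdrawn cells, against 5 at Day0, and their summed linear signal, on a log2 scale, was 16.20 and 16.24, against 11.68. Leukocyte markers had 10 of 12 at or above 6.67 on both culture arrays and 3 at Day0, with summed signals of 13.58 at 3w+Dox and 13.99 in withdrawn cells, against 10.20. Vim, the mesenchymal intermediate filament, read 9.17 at Day0, 13.54 at 3w+Dox and 13.59 in withdrawn cells. Between withdrawn cells and 3w+Dox neither list held a gene called by the 2-fold rule, with medians of 0.11 for fibroblast and 0.05 for leukocyte markers, or 0.90 and 0.85 with arrays centred on the adhesion genes. Single differences ran from -0.48 to 0.59 among fibroblast and from -0.70 to 0.88 among leukocyte markers, and their part in the regulator signals after withdrawal was not tested.

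Factors that drive the mesenchymal state, of which Zeb1 is known to be repressed by Ovol2 and Grhl2, were higher in both cultures. Of 10, 7 were higher by 4-fold at 3w+Dox and in withdrawn cells than at Day0, and 0 were lower. Zeb1 read 7.63 at Day0, 9.67 at 3w+Dox and 10.16 in withdrawn cells, and Zeb2 read 6.16, 9.64 and 9.85. Whether these signals and those of the 9 regulators came from the same cells cannot be told from bulk RNA.

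**Figure D3:**
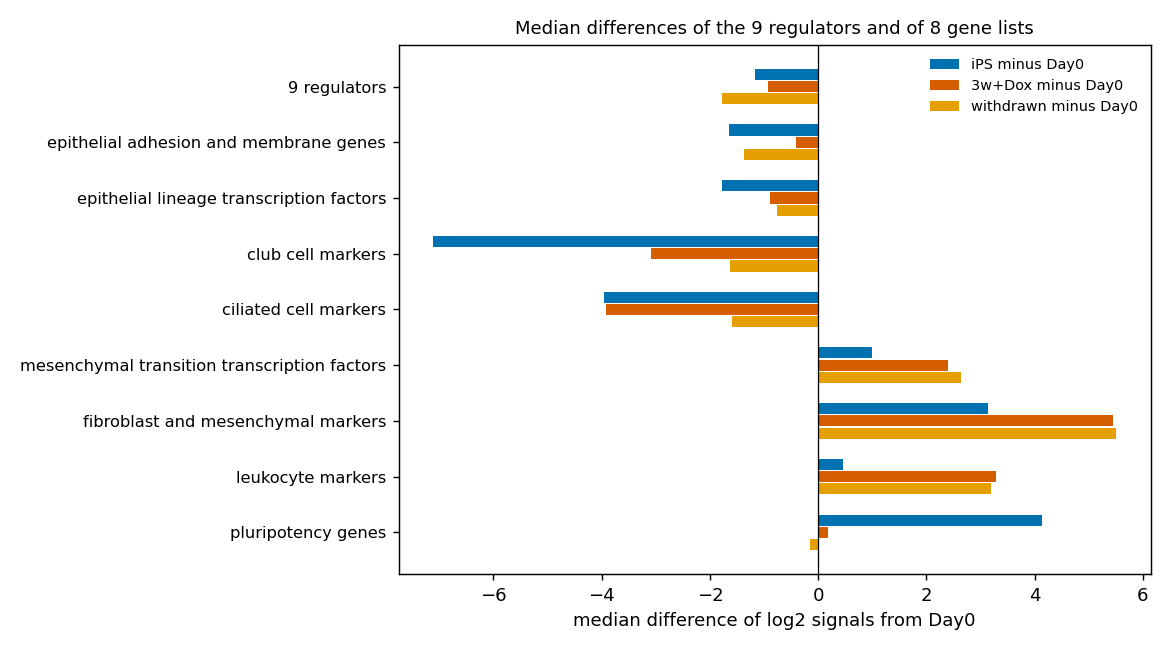
Median difference of log2 signals from Day0 (x axis) for the 9 regulators and 8 gene lists (y axis), as bars for iPS, 3w+Dox and withdrawn cells, without error bars because each population had 1 array. The 9 regulators and the adhesion genes were further below Day0 in withdrawn cells (-1.78 and -1.37) than at 3w+Dox (-0.93 and -0.40) on the deposited scale. With arrays centred on the adhesion genes the 9 were at -0.59 and -0.53. That centring raised the median of all named genes by 1.19 and 0.39. Ciliated cell markers were nearer to Day0 in withdrawn cells than at 3w+Dox.

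The comparison of iPS cells with Day0 asks which of these regulators a pluripotent derivative kept. They split, with Grhl3 5.18-fold higher in iPS cells and Ehf 32.7-fold lower, and with Ovol2 within 1.08-fold of Day0 on the deposited scale, or higher by 1.36 log2 units with arrays centred on the adhesion genes. By the 4-fold rule 1 of 9 was higher (4.89% of named genes) and 4 were lower (5.90%), and by the 2-fold rule 1 was higher (13.1%) and 6 lower (12.4%). The median was -1.17 (range -5.03 to 2.37), beside 0.00 over all named genes. With that centring, which raised the median of all named genes by 1.25, the median of the 9 turned to 0.073. Then 5 of the 9 lay above 0 and 4 below. By 4-fold 1 was higher and 1 lower, and by 2-fold 2 were higher and 4 lower. The shares of named genes called were not computed on that scale. Of 14 pluripotency genes, 10 were higher by 4-fold and 0 lower, with Nanog reading 12.87 in iPS cells against 6.27 at Day0.

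Grhl3 read 10.46 in iPS cells, against 8.09 at Day0, and 96.2% of named genes had a smaller difference. Grhl1 read 6.84 in iPS cells, against 9.20 at Day0, and Grhl2 read 8.23, against 9.40, a 2.25-fold lower signal that turned to a difference of 0.073 with arrays centred on the adhesion genes. Within this family the changes ran apart, with Grhl1 less Grhl3 at -4.73 and Grhl2 less Grhl3 at -3.54. Their relative Tfcp2l1 read 11.40 in iPS cells, against 9.75 at Day0, and was the only one of the 3 relatives called by the 2-fold rule. Tgm1 read 9.12 in iPS cells, against 7.77 at Day0, and of 15 barrier genes 2 were higher and 0 lower by 2-fold. Only 3 of the 15 lay at or above 6.67 in iPS cells and 3 at Day0.

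Ovol1 read 5.82 in iPS cells, against 8.55 at Day0, and Ovol2 read 8.40, against 8.29. Ovol1 less Ovol2 was -2.84, so the pair came apart more than in either culture. Ovol3 read 5.70 in iPS cells, against 6.02 at Day0.

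Ehf read 6.00 in iPS cells, against 11.03 at Day0, and 0.621% of named genes had a more negative difference. The iPS signal lies below 6.67, so the fold is not exact. Elf3 read 9.64 in iPS cells, against 10.41 at Day0, a 1.71-fold lower signal that missed the 2-fold rule and turned to a difference of 0.47 with arrays centred on the adhesion genes, and Ehf less Elf3 was -4.25. Of the 23 other Ets genes 2 were higher and 2 lower by 4-fold, among them Etv4, an effector of fibroblast growth factor signalling, by 2.45, Etv5 by 2.12, Elf5 by -5.86 and Elf1 by -2.38.

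Esrp1 read 9.57 in iPS cells, against 10.63 at Day0, and Esrp2 read 7.96, against 10.64. Esrp2 was 6.39-fold lower and Esrp1 2.09-fold lower, or at 0.18 with arrays centred on the adhesion genes, with Esrp1 less Esrp2 at 1.62. Among the other splicing regulators 1 was higher and 2 lower by 4-fold, with a median of 0.57. Rbm38 was higher by 2.72, and Mbnl1, which favours exons of differentiated cells, and Celf2 were at -2.92 and -2.08. Of genes spliced by Esrp proteins, Fgfr3 differed by -4.69, Fgfr2 by -3.12 and Cd44 by -3.11, and 0 were higher by 2-fold.

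Adhesion and membrane genes were lower in iPS cells than at Day0 by a median of -1.65, with 14 of 32 lower by 4-fold and 0 higher. Mal2, a protein of apical transport, differed by -5.07, Macc1 by -4.43, Krt19 by -3.78 and Cldn3 by -3.69. Epcam read 10.95 in iPS cells, against 11.19 at Day0, and Cdh1 read 11.90, against 12.56. Set against this median difference of the adhesion list, 5 of the 9 regulators lay above it and 4 below, with Grhl3 at 4.03 and Ehf at -3.38. The median of the 9 by this reference was 0.48, which is not the value by centring of arrays given above. Of 23 lineage factors 3 were higher and 11 lower by 4-fold, with a median of -1.78, and Foxa1, Nkx2-1 and Tfap2c differed by -5.53, -5.23 and 5.39. Fibroblast markers were higher in iPS cells too, with 11 of 14 higher by 4-fold and a summed signal of 14.96 against 11.68 at Day0, and leukocyte markers had a summed signal of 11.11 against 10.20.

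**Figure D4:**
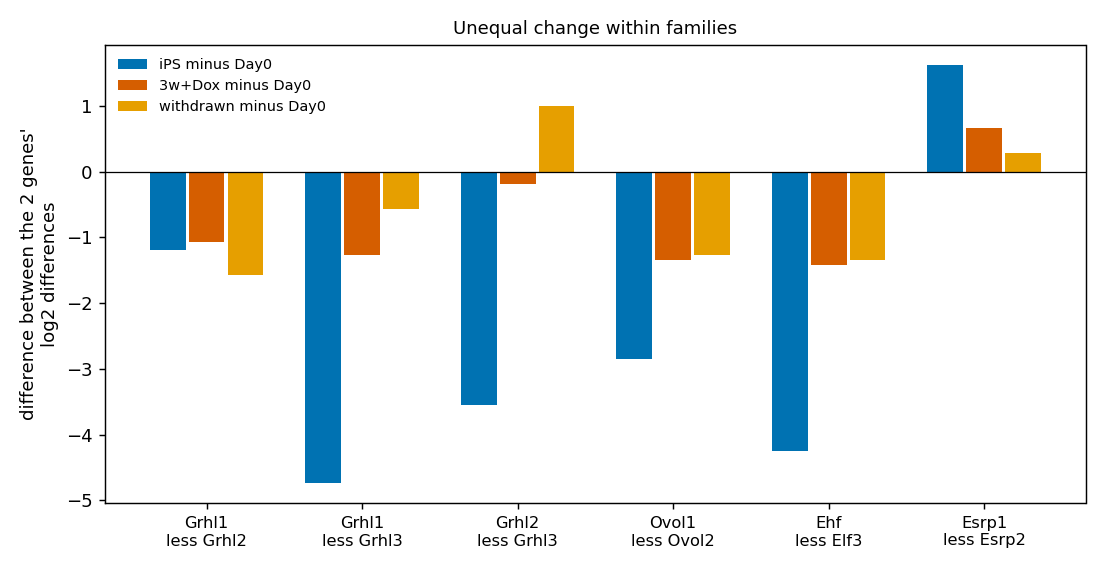
Unequal change within families, as the difference from Day0 of the first gene less that of the second (y axis, log2 units) for 6 pairs (x axis) in iPS, 3w+Dox and withdrawn cells, with no error bars. The iPS bars were the longest for 5 of the 6 pairs, with Grhl1 less Grhl3 at -4.73 and Ehf less Elf3 at -4.25, and Grhl1 less Grhl2 was the exception, at -1.18 in iPS cells and -1.57 in withdrawn cells.

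Set against the cultures, iPS cells were furthest apart in Grhl3 and Ehf. Against 3w+Dox, 1 of 9 was higher by 4-fold (3.57% of named genes) and 1 lower (5.16%), and by 2-fold 1 was higher (11.4%) and 3 lower (12.4%), with a median of -0.41 beside 0.06 over all named genes. Centring arrays on the adhesion genes raised the median of all named genes by 0.85, and that of the 9 turned to 0.44. Then 6 of the 9 lay above 0 and 3 below. By 2-fold 2 were higher and 1 lower, with the share of named genes not computed on that scale. Grhl3 read 10.46 in iPS cells and 7.16 at 3w+Dox, a 9.85-fold higher signal, and Ehf read 6.00 and 10.26, a 19.3-fold lower one. Grhl1 differed by -0.17 and Grhl2 by -0.05 on the deposited scale, and by 0.68 and 0.80 with arrays centred on the adhesion genes. The difference of Grhl2 also turned to 0.01 after a second quantile normalization.

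Against withdrawn cells, 1 was higher by 4-fold (3.83%) and 1 lower (5.05%), and by 2-fold 2 were higher (11.5%) and 1 lower (12.5%), with a median of 0.25 beside 0.02. Grhl3 was 27.9-fold higher in iPS cells, at 10.46 against 5.66 in withdrawn cells, and 99.8% of named genes had a smaller difference. Ovol2 was 2.59-fold higher in iPS cells, at 8.40 against 7.03, and Ehf was 9.53-fold lower, at 6.00 against 9.25. Differences of Grhl1, Esrp1 and Grhl2 were 0.63, 0.63 and 0.25, and those of Esrp2, Elf3 and Ovol1 were -0.70, -0.35 and -0.20. The adhesion list had a median of 0.04, which was -0.02 after a second quantile normalization.

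By level on the deposited scale, iPS cells were highest of the 4 populations for Grhl3 and Ovol2, 3w+Dox cells for Elf3, and Day0 cells for the other 6. Withdrawn cells were lowest for Grhl1, Grhl2, Grhl3, Ovol2 and Esrp1, and iPS cells for Ovol1, Ehf, Elf3 and Esrp2. Neighbours in these orders were often within 2-fold, such as Ovol2 in iPS and Day0 cells (0.11 apart), Grhl2 in iPS and 3w+Dox cells (-0.05) and Grhl1 in iPS and 3w+Dox cells (-0.17), and without replicates their order is not settled. The range over the 4 arrays was 5.03 for Ehf and 4.80 for Grhl3, larger than that of 98.4% and 98.1% of named genes, and 1.37 for Ovol2, 1.42 for Grhl2 and 1.43 for Elf3, larger than that of 70.1 to 71.7%.

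Likeness of pattern was measured as the root mean square distance of profiles centred on each gene's own mean over the 4 arrays, among 8096 genes with a range of at least 1 and a brightest array at or above 6.67. Within the set, Grhl2 and Esrp1 were the closest pair at 0.27, followed by Grhl1 and Ovol1 at 0.30 and Ovol1 and Esrp2 at 0.32, and Grhl3 and Ehf were the most distant at 3.33. None of the 9 had another of the 9 among its 3 nearest genes. The nearest were Asgr1, Noxa1 and Abca4 for Grhl1 (0.15 to 0.19), Abca7, Slc25a25 and Pafah2 for Grhl2 (0.04 to 0.05), and Kbtbd8, Pipox and Ranbp17 for Grhl3 (0.35 each). For Ovol1 they were Cracr2b, Ngef and Tef (0.06 to 0.08), and for Ovol2 Zbtb8os, Lpar2 and Slc12a7 (0.04 to 0.06). Fam174b, Smim6 and Mecom were nearest to Ehf (0.12 to 0.15), and Mllt3, Plekha6 and Kiss1r to Elf3 (0.05 to 0.07). Nipal3, Lrrc1 and Ppfibp2 were nearest to Esrp1 (0.10 to 0.11), and Myh14, Pgap4 and Slc9a2 to Esrp2 (0.05 to 0.08). The nearest gene to Grhl3 lay further away than the nearest gene to any other of the 9. The 4 arrays are shared by all of these profiles.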

How the data were processed

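RNA of 4 mouse cell populations was measured with 1 array per population. Values in the deposited table are log2 signals, and the submitters' processing notes name RMA, affy and R 3.0.2. By its usual definition RMA corrects background, normalizes probes by quantiles and summarises probe sets by median polish. No source used here gives the RMA settings, the annotation version or the genome build. The log2 scale follows from the range of the signals, 1.70 to 13.85. Of 25206 probe sets with Entrez gene IDs, 23185 had 1 symbol in the platform annotation, 0 had several and 2021 had none, and all 23185 IDs were found in RefSeq.

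Groups were taken from the sample titles. Differences of log2 signals were computed for 6 pairs of populations with Python 3.11.15, pandas 2.3.3 and numpy 2.4.6. The call rules were run on simulated data with planted changes larger than both thresholds and noise not taken from replicates. That run checked the code and not the error of the calls. There was no replicate and no test. The 9 members and the 18 gene lists (253 genes, 244 of them measured) were chosen with earlier results of these data known, so neither is independent evidence of a direction. Genes named are the 9 members, the 3 genes nearest to each in pattern (without predicted genes, receptor segments and small RNAs), up to 4 members of a list that differ most, and fixed markers. Alternatives were other filters on dim probe sets, an 8-fold threshold, 2 normalizations, centring on the adhesion list, a floor and the mean.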

Additional observations from a re-analysis of the deposited data

How the results depend on the processing

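Counts and medians of the 9 genes in all 6 comparisons stayed within 1.5-fold of the values above after a second quantile normalization, after centring each array on its brighter named genes, and with values under the 25th percentile (5.07) raised to it. The 2-fold count for withdrawn cells against 3w+Dox was 3 under the first 2 of these, without Ehf. The counts also did so with no filter on dim probe sets, and the medians did so when the mean replaced them. With the filter at the 75th percentile (8.82), the 4-fold count was 1 for 3w+Dox against Day0 and 1 for withdrawn cells against Day0, and the 2-fold count of the last comparison was 5. An 8-fold threshold gave counts of 0, 0 and 1 for 3w+Dox, withdrawn and iPS cells against Day0. Shares of all named genes were not computed for that filter or that threshold, so these counts stand without a background.

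Centring each array on the median of the 32 adhesion genes raised the median of all named genes by 0.39, 1.19 and 1.25 for 3w+Dox, withdrawn and iPS cells against Day0, by 0.80 and 0.85 for withdrawn and iPS cells against 3w+Dox, and by 0.05 in iPS cells against withdrawn cells, and the values that follow carry this shift. The 4-fold counts became 0, 0 and 2 for 3w+Dox, withdrawn and iPS cells against Day0, and the 2-fold counts 0 in withdrawn cells against 3w+Dox and 3 in withdrawn cells against Day0. The shares of named genes called were not computed after this centring. Medians of the 9 became -0.53, -0.59 and 0.073 for 3w+Dox, withdrawn and iPS cells against Day0, -0.0043 for withdrawn cells against 3w+Dox and 0.44 for iPS cells against 3w+Dox. Against Day0 in iPS cells, Grhl2 turned to 0.073 and Esrp1 to 0.18. Withdrawn cells against 3w+Dox then had 5 of the 9 below 0 and 4 above. The share of the 3w+Dox difference undone became -0.24% for Grhl1, 67.9% for Grhl2, 19.5% for Ovol1 and 15.6% for Esrp2. Of the 54 differences of single genes, 15 stayed within 1.5-fold of their values under this centring.

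Alternatives for the gene lists and for differences within families were added after seeing the data. Of the 27 genes nearest in pattern, 22 were the same when the largest difference between profiles replaced the root mean square. No paired analysis was possible because each population had 1 array. No array signal under 6.67 gives an exact fold here, and no difference was checked against replicates.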
